A study of Homo sapiens with 2 samples.

Results

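The enzymes that make, recycle and break down deoxynucleotides were followed in PC-3 cells, a human prostate cancer line that grows without androgen. The set held 9 genes, RRM1, RRM2, RRM2B, TYMS, TK1, TK2, DUT, DCK and SAMHD1, out of 19775 genes that the array's annotation names through a probe set of 1 gene alone. The members were taken by name and not by their values, but with earlier results of these data known. RD (Riccardin D) is a macrocyclic bisbibenzyl isolated from a liverwort, and the study asked whether it damages DNA in prostate cancer cells. One group received RD at 10 µmol/L over 24 h, the dose being given by the study and not by the sample labels. The other group, called control here, was described as untreated in its source label and as given the vehicle DMSO in the treatment protocol. Each group had 1 Affymetrix HG-U133 Plus 2.0 array, so there was no spread between cultures, no test was possible, and any difference between the cultures cannot be told apart from RD.

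DNA synthesis needs 4 deoxynucleoside triphosphates in balance. Ribonucleotide reductase, made of a large subunit (RRM1) and a small subunit (RRM2), reduces ribonucleotides to deoxynucleotides, and RRM2B, a relative of RRM2, takes its place in resting cells and after DNA damage. Thymidylate takes a route of its own, in which DUT hydrolyses dUTP to dUMP and TYMS methylates dUMP to dTMP. Thymidine is salvaged by TK1 in the cytosol and by TK2 in mitochondria, DCK phosphorylates deoxycytidine and other deoxynucleosides, and SAMHD1 hydrolyses deoxynucleoside triphosphates. From textbook knowledge, RRM1, RRM2, TYMS, TK1 and DUT were classed as S-phase enzymes, whose transcripts climb as cells enter DNA synthesis. RRM2B, TK2, DCK and SAMHD1 were classed as constitutive enzymes, which are present outside S phase too.

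E2F and NF-Y are transcription factors known to act on genes of DNA synthesis, and their recognition letters were looked up in the RefSeq promoter windows of 8 members (GRCh38.p14, 250 bases before to 50 after an annotated start). The E2F letters searched were TTTCCCGC, TTTCGCGC, TTTGCCGC and TTTGGCGC, the NF-Y letters were CCAAT (the CCAAT box), and TTTGAA stood for the CHR element of cell cycle genes, each on both strands. Of 35116 windows of all genes, 3.31% held an E2F match, 34.6% a CCAAT box and 15.2% a CHR match. Of the 13 windows of the 8 members, 3 held an E2F match, 5 a CCAAT box and 2 a CHR match. For the CCAAT box and the CHR element this is about the share over all windows, so neither sets the members apart. Among the S-phase enzymes, DUT (1 of 4 windows) and TYMS held an E2F match, while RRM1, RRM2 (both windows) and TK1 (1 of 2 windows) held a CCAAT box. The sites below are shown as the E2F and CCAAT matches of S-phase enzymes called lower in RD-treated cells, apart from 1 CCAAT box of RRM2 and that of RRM1, which stands in the longer stretch after them. Every site is printed 5′ to 3′ on the strand of its gene, with the match in capitals.
DUT, 2 overlapping stretches, plus strand, chr15:48332144-48332173: gggcggggctgGCGGGAAAtttcggttttg
DUT, plus strand, chr15:48332159-48332188: gaaatttcggtTTTGGCGCgctccctgcgg
TYMS, plus strand, chr18:657603-657632: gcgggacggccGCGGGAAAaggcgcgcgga
RRM2, plus strand, chr2:10122604-10122633: ggcaaggcgcagCCAATgggaagggtcgga
RRM2, plus strand, chr2:10122634-10122663: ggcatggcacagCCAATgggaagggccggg
RRM2, plus strand, chr2:10122661-10122690: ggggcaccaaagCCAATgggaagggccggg
TK1, minus strand, chr17:78187112-78187141: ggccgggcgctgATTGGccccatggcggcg
TK1, minus strand, chr17:78187081-78187110: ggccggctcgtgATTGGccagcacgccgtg
In DUT and TYMS, GCGGGAAA is the reverse complement of TTTCCCGC, and in TK1, ATTGG is that of CCAAT. The 3 RRM2 sites printed, all in 1 window, shared an identical stretch of 15 bases, agCCAATgggaaggg. The other RRM2 window held 1 CCAAT box, not printed, that lacks this stretch. RRM1 had 1 window, and its 250 bases before the start are shown whole because they hold both a CHR match and a CCAAT box.
RRM1, plus strand, chr11:4094435-4094684: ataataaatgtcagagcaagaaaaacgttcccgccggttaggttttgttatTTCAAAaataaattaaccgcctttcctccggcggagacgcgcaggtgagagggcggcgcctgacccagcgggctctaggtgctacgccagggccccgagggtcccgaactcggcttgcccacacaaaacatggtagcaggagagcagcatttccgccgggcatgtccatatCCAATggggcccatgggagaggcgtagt
Among the constitutive enzymes, DCK also held an E2F match and SAMHD1 held 2 CCAAT boxes, while TK2 held no match to the 3 motifs. DUT held 2 CHR matches in the window with its E2F letters. The matches were therefore found in both classes, and they describe letters in these windows, not binding.

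The deposited values are MAS5 signals, intensities on a linear scale in arbitrary units that were scaled per array. The median over the signals of both arrays, 66.9, served as the floor. A gene was called higher or lower after RD if the larger of its signals reached this floor and was at least 2-fold the smaller one. Where a gene had several probe sets (sets of short oligonucleotide probes against 1 transcript), the brightest stood for it. The SD between probe sets of the same gene was 0.34 on the log2 scale over 8576 probe sets at or above the 75th percentile of signals (377.4), a range in which the chosen probe sets of all 9 members lay on at least 1 array. This SD covers probe behaviour only and not the spread between cultures. It is that of single probe sets around the mean of their gene, so a difference between probe sets spreads more. The epithelial keratin KRT18 had signals of 15416.6 in RD-treated cells and 10224.2 in control cells, and KRT8 had 159.3 and 113.8. Of the other epithelial markers, EPCAM and CDH1 were under the floor on both arrays. KLK3, which is known to be low or absent in this line, had 230.6 in RD-treated cells and 131.4 in control cells by a probe set that may bind other transcripts, and FOLH1 had 4.8 and 67.1. The leukocyte markers PTPRC and CD3E, the fibroblast markers COL1A2 and PDGFRB and the endothelial marker VWF were under the floor on both arrays. COL1A1 reached 325.8 in RD-treated cells and 370.6 in control cells, and PECAM1 72.7 and 121.6.

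All 5 S-phase enzymes were called lower in RD-treated cells, and none of the 4 constitutive enzymes was called in either direction. Because the classes were set with earlier results of these data known, this split is a description and not an independent check. For comparison, 13.3% of 12818 genes at or above the floor were called lower and 12.1% were called higher. The median log2 difference (RD minus control) was -2.30 over the S-phase enzymes, -0.25 over the constitutive enzymes and -0.0022 over all genes at or above the floor. By probe set, 11 of 11 at or above the floor were called lower for the S-phase enzymes and 0 of 10 for the constitutive enzymes, against 13.2% of single-gene probe sets. The ranges of the classes did not overlap. The S-phase probe set nearest to 0 stood at -1.25 on the log2 scale and the lowest constitutive one at -0.88, a gap of 0.38. This gap is little more than the SD of 0.34 of single probe sets, and a difference between probe sets spreads more than that SD. Both probe sets at the gap may bind other transcripts. By gene, DCK lay nearer to DUT (0.38) than to SAMHD1 (0.56). In bulk RNA, fewer cells in S phase and less RNA per cell cannot be told apart.

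**Figure D1:**
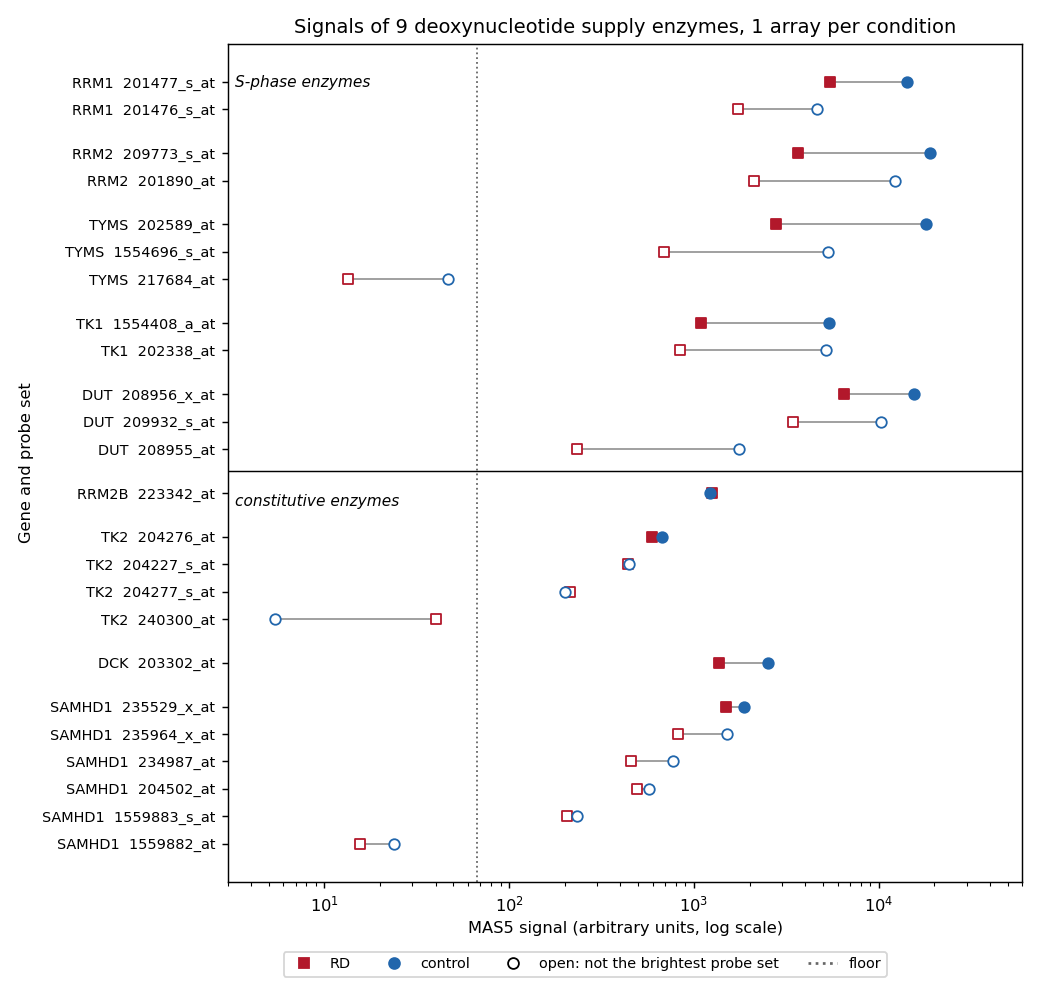
MAS5 signal (horizontal, log scale, arbitrary units) of each probe set of the 9 enzymes on the RD array (squares) and the control array (circles). Filled symbols mark the brightest probe set per gene, open symbols mark the others, and the floor of 66.9 is drawn as a dotted line. The squares lie well to the left of the circles in the upper block of S-phase enzymes, and close to the circles in most rows of the lower block.

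The reductase subunits of dividing cells were both lower, and the small subunit more so. RRM2, the small subunit that carries the radical needed for catalysis, had a signal of 3663 in RD-treated cells and 19067.9 in control cells, which is 5.21-fold lower. Its second probe set read 2110.6 in RD-treated cells and 12308 in control cells. The RRM2 probe sets thus stood at 0.192 and 0.171 of control, with an SD between them of 0.12 on the log2 scale. RRM1, the large catalytic subunit, had 5457.6 in RD-treated cells and 14159.1 in control cells (2.59-fold lower), and its second probe set had 1729.2 and 4629.5. The RRM1 probe sets lay 0.045 apart on the log2 scale, the closest of any member with several probe sets at or above the floor. The log2 difference of RRM1 was 1.0 closer to 0 than that of RRM2.

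RRM2B, the alternative small subunit, differed little between the arrays. Its single probe set read 1252.3 in RD-treated cells and 1227.1 in control cells, a log2 difference of 0.03. That is under the within-gene SD of 0.34, which does not measure the spread between cultures. The differences of the paired small subunits RRM2 and RRM2B were therefore 2.41 apart on the log2 scale. Signals of different probe sets are not on a common scale, so the arrays do not say which small subunit was the more abundant.

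TYMS showed the largest difference of the set by its brightest probe set. This enzyme, thymidylate synthase and the target of fluoropyrimidine drugs, had a signal of 2770.6 in RD-treated cells and 18140.7 in control cells, which is 6.55-fold lower. Its second probe set read 685.2 in RD-treated cells and 5309.8 in control cells (7.75-fold lower). Another TYMS probe set was under the floor on both arrays (13.5 in RD-treated cells and 46.5 in control cells) and gives no fold. TYMS ranked lowest of the members among all genes, with 228 of 12818 genes, or 1.78%, showing a lower log2 difference.

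DUT, which keeps uracil out of DNA, was called lower by all 3 of its probe sets, but by unequal amounts. The brightest had 6526.2 in RD-treated cells and 15569.8 in control cells (2.39-fold lower), and carries a suffix (_x_at) that marks probes able to bind other transcripts. The next had 3451.6 in RD-treated cells and 10340.1 in control cells (a log2 difference of -1.58). The dimmest had 232.7 in RD-treated cells and 1744.1 in control cells, a log2 difference of -2.91, and was the only one without a suffix. The 3 probe sets spanned 1.65 on the log2 scale, with an SD of 0.87, the widest of any member. DUT makes a nuclear and a mitochondrial form, and the annotation used here does not say which form each probe set reads.

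The cytosolic and mitochondrial thymidine kinases differed from each other as the small subunits did. TK1, the cytosolic enzyme used as a proliferation marker, had 1089 in RD-treated cells and 5364.4 in control cells (4.93-fold lower), and 846.1 and 5215.1 by its second probe set. TK2, the mitochondrial enzyme, had 591.2 in RD-treated cells and 673.1 in control cells by its brightest probe set, which is 87.8% of control. Its next probe sets had 441.7 in RD-treated cells against 447.2 in control cells, and 214.9 against 201.4. All 3 TK2 differences lay between -0.19 and 0.09 on the log2 scale, and the fourth probe set was under the floor on both arrays (40.1 in RD-treated cells and 5.4 in control cells). By the brightest probe sets the log2 differences of TK1 and TK2 were 2.11 apart.

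DCK, the first enzyme of deoxycytidine salvage and the activator of nucleoside drugs such as cytarabine and gemcitabine, came nearest to the S-phase enzymes. Its only probe set read 1369.5 in RD-treated cells and 2510.3 in control cells, which is 1.83-fold lower and short of 2-fold. This log2 difference of -0.87 was larger in size than the within-gene SD of 0.34, which does not measure the spread between cultures. SAMHD1, which removes deoxynucleoside triphosphates and is best known for restricting retroviruses in myeloid cells, was lower by all 5 of its probe sets at or above the floor, each by less than 2-fold. Its brightest had 1497 in RD-treated cells and 1862.7 in control cells (80.4% of control), again with the suffix for probes that may bind other transcripts. The other 4 had 821, 457.5, 489.7 and 206.7 in RD-treated cells against 1507, 767, 569.8 and 233.8 in control cells. SAMHD1 differences spanned -0.88 to -0.18 on the log2 scale, with an SD of 0.32 over the 5 probe sets, and a sixth was under the floor on both arrays.

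**Figure D2:**
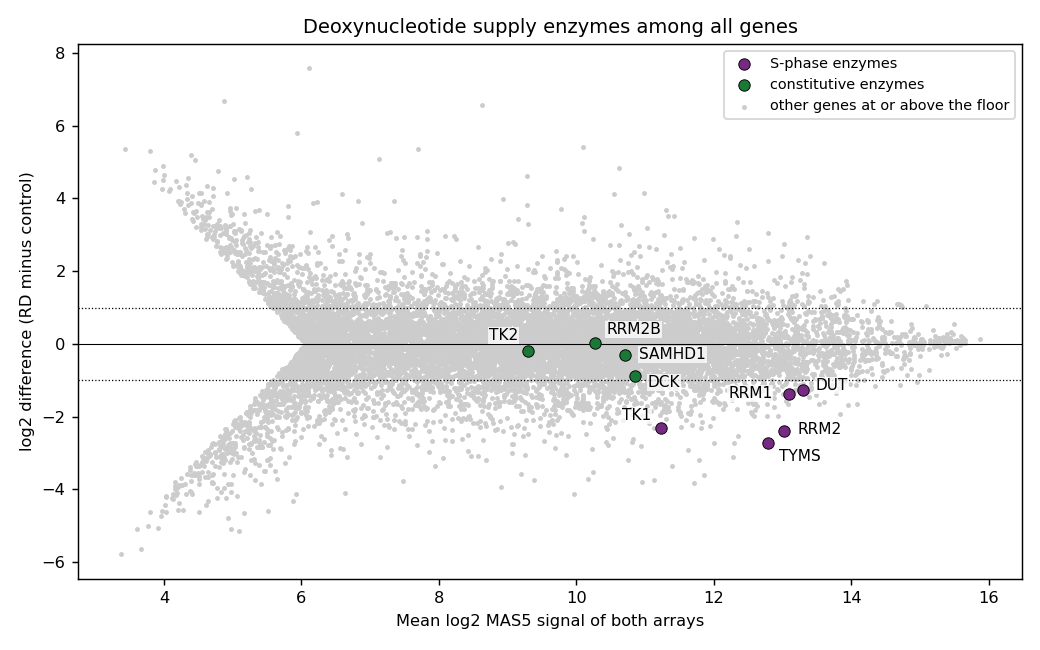
Mean log2 MAS5 signal of both arrays (horizontal) against the log2 difference, RD minus control (vertical), for every gene at or above the floor (grey), the S-phase enzymes (purple) and the constitutive enzymes (green). Dotted lines mark 2-fold, below which lie all 5 purple points, from DUT at -1.25 to TYMS at -2.71, and none of the green points.

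Ordered by log2 difference, the S-phase enzymes ran TYMS at -2.71, RRM2 at -2.38, TK1 at -2.30, RRM1 at -1.38 and DUT at -1.25. Both TYMS probe sets at or above the floor lay below those of RRM2 and TK1, which interleaved. The step between TYMS and RRM2 was 0.33 by the brightest probe sets, that between RRM2 and TK1 was 0.08 and that between RRM1 and DUT was 0.12, none of them above the SD of 0.34, whereas the step between TK1 and RRM1 was 0.93. The dimmest DUT probe set lay between the pair of TYMS. Of the constitutive enzymes, DCK stood at -0.87, SAMHD1 at -0.32, TK2 at -0.19 and RRM2B at 0.03, and the steps of 0.13 and 0.22 between the last 3 were smaller than the SD between probe sets. By Euclidean distance over the log2 signals of both arrays, the genes most like TYMS were RRM2, ACAT2 and PCNA. Those most like RRM2B, the member with the smallest difference, were ABCC1, LRRC57 and CTDSP2. With only 2 arrays, such a likeness rests on 2 values per gene.

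Genes around the set were read from 4 lists of textbook partners, also chosen with earlier results of these data known. The kinases and folate steps that carry deoxynucleotides onward had a lower signal after RD in 6 of 8 genes at or above the floor. Of the 8, 3 (37.5%) were called lower and none higher, and the median log2 difference was -0.87. Over all genes at or above the floor, 13.3% were called lower and 12.1% higher. DTYMK, the kinase that follows both TYMS and TK1, had 1637.6 in RD-treated cells and 6152.5 in control cells (3.76-fold lower). Of its 4 probe sets at or above the floor, 3 stood at 0.263 to 0.279 of control, and the dimmest ran the other way with 68.9 in RD-treated cells and 25.5 in control cells. The nucleoside diphosphate kinases NME4 and NME1 were 3.63-fold and 3.01-fold lower. NME6, of the same family, and CMPK1, which phosphorylates CMP and UMP, stood at 1.54 and 1.07 of control. The folate enzyme SHMT1 and CMPK2 were under the floor by their chosen probe sets.

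Among genes of salvage, transport and breakdown, 6 of 18 (33.3%) were called lower and 1 (5.56%) higher, with a median log2 difference of -0.55. The shares over all genes at or above the floor were 13.3% lower and 12.1% higher. The lowest was NUDT1 (MTH1), which clears oxidised purine nucleotides from the pool, with 170 in RD-treated cells and 2030.9 in control cells (11.9-fold lower). SLC29A1, the main equilibrative nucleoside transporter, had 231.3 in RD-treated cells and 1290.6 in control cells (5.58-fold lower), and its second probe set was 2.02-fold lower. Its relative SLC29A2 was 2.02-fold lower, and 1 of its 3 probe sets at or above the floor stood at 1.04 of control. DCTPP1, which hydrolyses dCTP and modified forms of it, was 2.95-fold lower, and MPV17, an inner mitochondrial membrane protein needed to maintain mitochondrial DNA, was 2.39-fold lower. NT5E, the ecto-nucleotidase CD73, was 2.31-fold lower by its brightest probe set, while its other 3 stood between 0.568 and 0.580 of control and were not called. UPP1, which splits uridine, had 1873.5 in RD-treated cells and 622.5 in control cells (3.01-fold higher), and SLC25A36, a mitochondrial pyrimidine nucleotide carrier, stood at 1.71 of control. DGUOK, the mitochondrial partner of TK2 in salvage, stood at 0.846 of control.

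The proteins that pass electrons to ribonucleotide reductase did not share the lower signals of its subunits. GLRX (glutaredoxin) had 27147.2 in RD-treated cells and 5755.2 in control cells (4.72-fold higher), and its second probe set was 5.70-fold higher. TXNRD1, thioredoxin reductase, had 38049.7 in RD-treated cells and 17667.9 in control cells (2.15-fold higher). TXN stood at 0.982 of control, and GSR, glutathione reductase, at 1.56. Of these 4 genes, 2 were called higher and none lower, with a median log2 difference of 0.87. Over all genes at or above the floor, 12.1% were called higher and 13.3% lower.

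Of 17 known regulators of the enzymes, 9 (52.9%) were called lower and none higher, with a median log2 difference of -1.46. The shares over all genes at or above the floor were 13.3% lower and 12.1% higher. The E2F activators E2F1 and E2F2 stood at 0.331 and 0.330 of control by their brightest probe sets. Their other probe sets stood lower, at 0.116 for E2F1 and at 0.160 and 0.0725 for E2F2, with RD signals under the floor. Their dimer partner TFDP1 stood at 0.364, although 1 of the 3 TFDP1 probe sets stood at 0.979. E2F3 stood at 1.30 of control and E2F4 had 586.8 in RD-treated cells and 586.9 in control cells, so neither was called. MYBL2 (B-Myb) had 76.9 in RD-treated cells and 789.4 in control cells (10.3-fold lower). That fold rests on 1 probe set with an RD signal close to the floor of 66.9. FOXM1 stood at 0.313 of control. CCNF, the cyclin F that marks RRM2 for degradation, stood at 0.255 of control. CDK1, CDK2 and CCNA2, whose kinase complexes phosphorylate SAMHD1, stood at 0.0981, 0.225 and 0.281. The NF-Y subunits NFYA, NFYB and NFYC, which bind the CCAAT box, stood at 1.18, 1.39 and 1.20 of control by their brightest probe sets. The other NFYA probe sets at or above the floor stood at 1.11, 1.56, 1.59 and 1.96 of control. The other 2 of NFYB stood at 0.771 and 0.977, and those of NFYC at 0.959, 1.05, 1.19 and 1.29. None of the NF-Y probe sets at or above the floor was called.

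**Figure D3:**
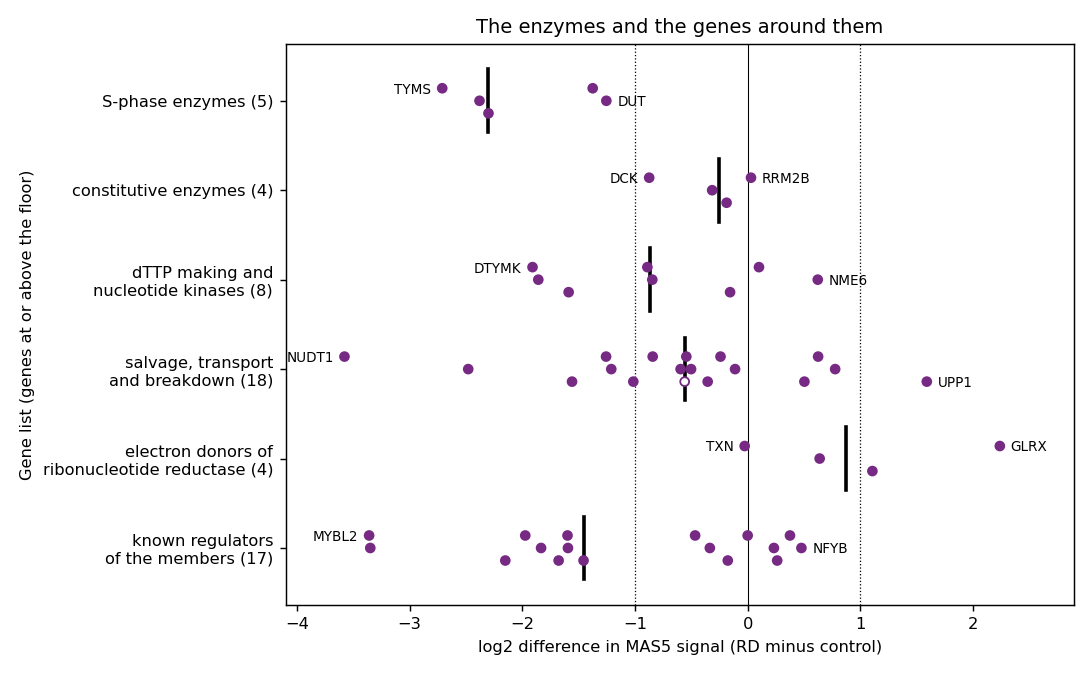
Horizontal axis, log2 MAS5 signal of RD minus that of control. Each point is a gene that reached the floor, in the row of its list, whose gene number is bracketed, with a vertical bar at the median. Dotted lines mark 2-fold, names stand beside the lowest and highest gene of a list, and the open circle is NT5M, which had 1 signal under the floor. The medians of the S-phase enzymes (-2.30) and of the known regulators (-1.46) lie left of the 2-fold line, and that of the electron donors (0.87) lies right of 0.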

How the data were processed

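Total RNA of PC-3 cells was read on 2 arrays (Affymetrix HG-U133 Plus 2.0), 1 per condition. The values that the authors deposited are linear intensities, named MAS5 signals in the submitters' processing notes. For MAS5, neither version nor scaling target is given in the sources used here. After trimming 2% of probe sets at either end, the mean was 495.9 for the RD array and 495.8 for the control array. MAS5 subtracts mismatch signals, so dim probe sets are noisy, and precision is limited by the number of arrays. No detection calls were used.

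Differences were taken as log2 of the RD signal minus log2 of the control signal, without an offset. Of 54613 probe sets, 41091 named 1 gene through the platform annotation, 1801 named several and stood for none, and 11721 were unnamed here. RefSeq gene IDs changed no symbol. Each gene was read from its brightest probe set (highest mean log2 signal). All 24 probe sets of the members had 1 gene, 21 of them at or above the floor. A difference of 2-fold with the larger signal at the floor was called. No p-value was computed.

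The members, classes, lists and alternatives were chosen with earlier results of these data known, and the motif letters after the promoter windows had been seen. The text names all members, the called genes and up to 2 genes at each end of a list, and further genes of these lists chosen after their values were seen. RRM2B was not in the promoter table used. Some genes are not reported here. The alternatives were 2 scalings, an offset, signals raised to the floor, 2 rules for the probe set of a gene, 2 floors, 2 thresholds and 2 changes of class. The scripts were tested on simulated data. The software was Python 3.11.15 with matplotlib 3.10.9, pandas 2.3.3 and numpy 2.4.6.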

Additional observations from a re-analysis of the deposited data

How the results depend on the processing

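No paired analysis was possible because each group had 1 array. The median log2 difference of the S-phase enzymes lay between -2.67 and -2.28 over 11 alternatives, that of the constitutive enzymes between -0.53 and -0.22 over 11, and the difference between these medians (S-phase minus constitutive, -2.05) between -2.25 and -1.77 over 12. No constitutive enzyme was called higher under any of its 11 alternatives. With a threshold of 3-fold, 3 of the S-phase enzymes were called lower, since RRM1 and DUT lie under 3-fold, and with RRM1 and DUT left out of the class the count was 3 of 3 by construction. With a threshold of 1.5-fold, 1 constitutive enzyme, DCK, was called lower. Of all genes, 1707 were called lower and 1551 higher. These counts were 3566 and 3321 with no floor, 881 and 802 with a floor at the 75th percentile, 3169 and 2925 at 1.5-fold, and 775 and 668 at 3-fold. Of 89 member values under alternatives, 88 moved by less than 0.76 on the log2 scale, which is the SD within genes for probe sets that reached the floor. The exception was DUT, at -2.91 when only probe sets without a suffix were used. Under that rule SAMHD1 stood at -0.75 against -0.32 in the main setting, a move above the SD of 0.34 for bright probe sets. Changes of floor or threshold and raising signals to the floor could not move a member value, so many of the 88 were unchanged by construction. TK2 turned to 0.04 by the median over its probe sets, which takes in the one under the floor. Over the 3 at or above the floor the TK2 median was -0.018. RRM1 had no probe set without a suffix and gave no value there. Leaving out a replicate was not possible with 1 array per group.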
